A study of Mus musculus with 6 samples.

Results

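The members of the SLC25 family of mitochondrial carriers were followed in cultured mouse CD8+ T cells exposed to aminooxyacetic acid (AOA), an inhibitor of enzymes that need pyridoxal 5'-phosphate, the active form of vitamin B6. Members were the genes whose symbol reads Slc25a and a number, beside Slc25a11, Slc25a12 and Slc25a13, which were left out. This gave 34 of the 11922 genes in the count table. A RefSeq gene table holds 44 symbols of this form beside the 3 left out. The other 10 (Slc25a2, Slc25a18, Slc25a21, Slc25a31, Slc25a34, Slc25a41, Slc25a43, Slc25a47, Slc25a48 and Slc25a54) were not analysed here. Splenic CD8+ T cells of 3 C57BL6/J mice, over 6 weeks old, were selected with beads against CD8a and activated with anti-CD3/CD28 Dynabeads for 72 hours in medium with IL-2 at 100 units/ml. They were then grown without beads in the same IL-2 for 4 days. Water (vehicle, n = 3) or 0.25 mM AOA (n = 3) was present for all 7 days, and each mouse gave 1 culture to each group. RNA of the whole culture was sequenced at day 7.

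SLC25 proteins are small carriers, nearly all of the inner mitochondrial membrane, that exchange or import nucleotides, phosphate, carboxylates, amino acids, cofactors and metal ions between the cytosol and the matrix. They are made in the cytosol and inserted into the inner membrane by the TIM22 complex, to which small Tim chaperones bring them. Activated T cells build up their mitochondria as they grow, and many of the pathways that AOA reaches, among them transamination, glycine and one-carbon metabolism and heme synthesis, depend on metabolites that cross this membrane.

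Libraries held 12881962 to 18934869 counts with vehicle and 18696114 to 21997078 with AOA. CD8 T cell markers were abundant in all of them, with a summed level over the 7 markers listed of 4210 to 5220 CPM (counts scaled to a common library total) with vehicle and 5130 to 6070 CPM with AOA. Markers of other cells also moved with treatment. CD4 T cell markers (3 of 3 listed) summed to 154 to 205 CPM with vehicle and 32.4 to 53.1 CPM with AOA, myeloid markers (3 of 5) to 40.8 to 54.2 and 0.873 to 3.33 CPM, natural killer markers (2 of 3) to 20.1 to 114 and 3.53 to 11.6 CPM, and B cell markers (4 of 5) to 12.6 to 16.6 and 22.6 to 30.7 CPM. No listed marker was at 0 in every library, and none of the 10 erythroid markers was among the genes of the table. The part of these cells in the carrier results was not tested. RNA was measured in bulk, so fewer cells of a type and less RNA per cell cannot be told apart.

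AOA treatment changed 17 of the 34 carriers, of which 7 rose and 10 fell, and left 17 without a call. Slc25a10, the dicarboxylate carrier, rose the most, from 7.85 ± 0.675 CPM (SD, n = 3) with vehicle to 28.6 ± 1.03 CPM with AOA. Slc25a25, Slc25a15 and Slc25a32 also rose by more than 1 on the log2 scale, while Slc25a53, Slc25a27, Slc25a37 and Slc25a40 fell by more than 1. The most abundant carrier, the ADP/ATP exchanger Slc25a5, rose from 476 ± 21.5 to 771 ± 104 CPM. A gene was called at an adjusted p under 0.05 in edgeR's quasi-likelihood test over 11759 genes, and log2 fold changes are given as AOA relative to vehicle.

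The background to these counts was large. Of all genes tested, 53.0% were called, 26.2% higher and 26.8% lower with AOA, so the carriers were called about as often as any gene. A change of at least 1 on the log2 scale was called in 4 carriers upwards and 4 downwards, against 12.1% and 14.1% of all genes. The median log2 fold change was 0.18 in the carriers and -0.02 over all genes, and the median absolute change was 0.56 in both. All 34 members passed the filter on low counts, with single counts of 15 to 19265. CPM of the AOA libraries lay wholly above those of vehicle in 13 carriers, wholly below in 11 and overlapped in 10. Over all genes the groups lay apart in 62.1%, with 31.0% wholly above and 31.1% wholly below.

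**Figure D1:**
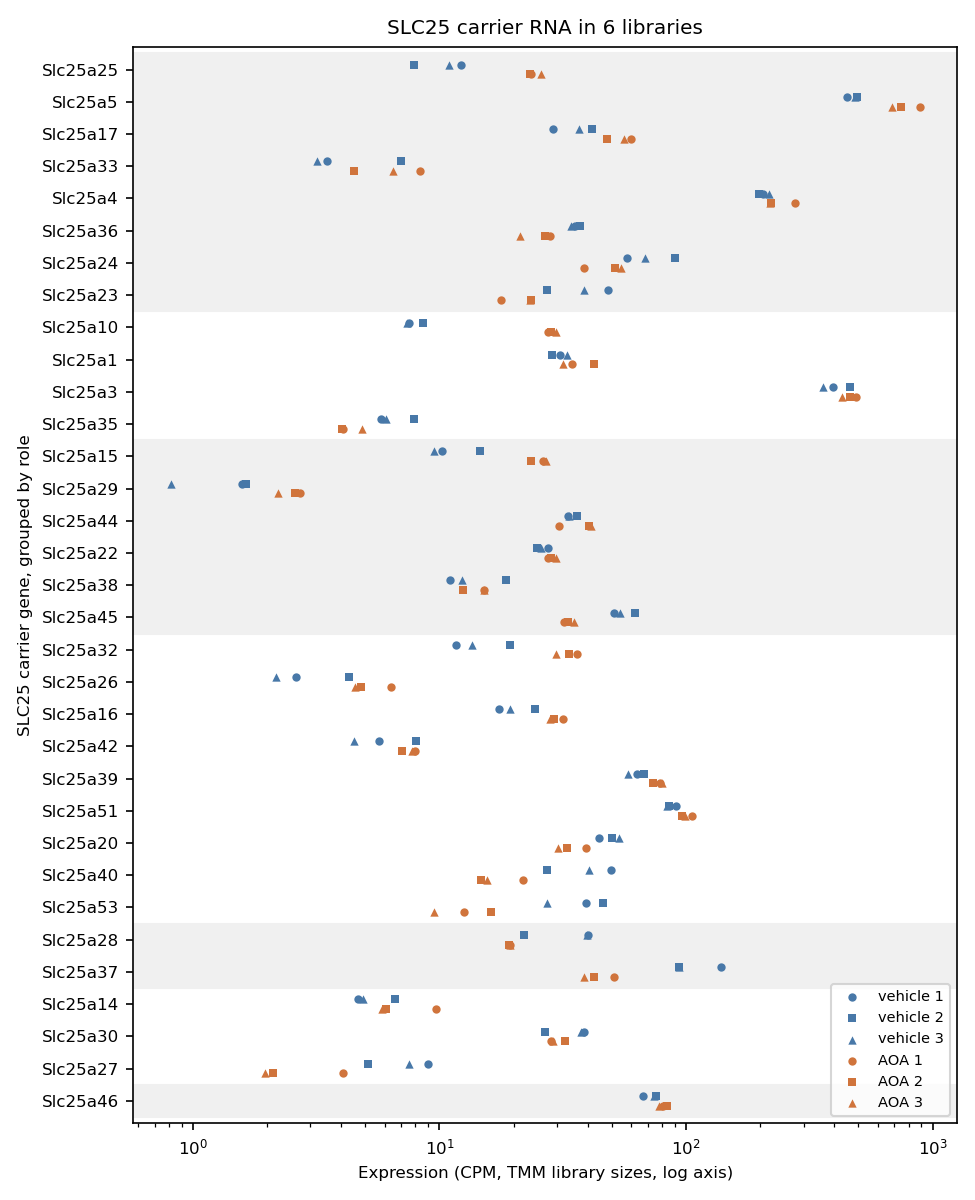
Expression of 33 SLC25 carriers in each of 6 libraries, in CPM on a log axis, with genes on the vertical axis grouped by role. Blue marks vehicle and orange AOA, and the circle, square and triangle mark mice 1, 2 and 3. Slc25a5, Slc25a3 and Slc25a4 lie at the far right, and the orange points of Slc25a10 lie well to the right of the blue ones.

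Levels were compared between genes as RPKM (CPM divided by the deposited gene length in kilobases). Slc25a5 (368 ± 16.6 RPKM with vehicle), the phosphate carrier Slc25a3 (268 ± 34.4) and the second ADP/ATP exchanger Slc25a4 (187 ± 8.79) led in both groups. Together they made 67.4%, 69% and 68.3% of carrier RPKM with vehicle and 77.5%, 75.5% and 74.3% with AOA. The fourth, Slc25a39, had 37.9 ± 2.67 RPKM. Slc25a29 was the lowest with vehicle at 0.687 ± 0.237 RPKM, and Slc25a27 the lowest with AOA at 1.01 ± 0.432 RPKM. Summed over the family, carrier RNA made 0.202%, 0.224% and 0.196% of counts with vehicle and 0.256%, 0.237% and 0.227% with AOA, so the groups did not overlap. Most of this rise lay in 1 gene, Slc25a5. The family summed to 2070, 2160 and 2020 CPM with vehicle and 2590, 2350 and 2240 CPM with AOA. Of these, Slc25a5 made 452, 492 and 484 CPM with vehicle and 886, 745 and 682 CPM with AOA.

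The 4 promoters shown belong to carriers that changed by more than 1 on the log2 scale. They are Slc25a10, the largest rise, Slc25a25 and Slc25a15, which rose, and Slc25a53, the largest fall. Each line gives the 250 bases before the RefSeq transcription start in GRCm38.p6, written 5' to 3' on the gene's strand, with capitals for matches on either strand to the motifs named after them.
Slc25a10 (chr11:120491587-120491836, + strand): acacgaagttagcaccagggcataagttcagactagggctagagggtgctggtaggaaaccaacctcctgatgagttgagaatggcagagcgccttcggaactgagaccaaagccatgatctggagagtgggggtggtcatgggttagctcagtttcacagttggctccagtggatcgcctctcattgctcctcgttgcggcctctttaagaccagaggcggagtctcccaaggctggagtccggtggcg
Slc25a25 (chr2:32451471-32451720, - strand, the most upstream of its starts): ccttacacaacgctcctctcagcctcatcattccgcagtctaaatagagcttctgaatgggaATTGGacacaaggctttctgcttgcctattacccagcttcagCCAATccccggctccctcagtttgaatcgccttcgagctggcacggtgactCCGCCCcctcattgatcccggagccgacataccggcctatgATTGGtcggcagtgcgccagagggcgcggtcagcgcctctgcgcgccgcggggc
Slc25a15 (chr8:22398622-22398871, - strand, the more upstream of its starts): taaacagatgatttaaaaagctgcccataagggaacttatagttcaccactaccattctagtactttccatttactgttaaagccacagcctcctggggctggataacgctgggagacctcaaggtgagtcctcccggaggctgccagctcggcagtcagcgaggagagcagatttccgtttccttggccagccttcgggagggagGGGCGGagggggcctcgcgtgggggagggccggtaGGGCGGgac
Slc25a53 (chrX:137038303-137038552, - strand, the more upstream of its starts): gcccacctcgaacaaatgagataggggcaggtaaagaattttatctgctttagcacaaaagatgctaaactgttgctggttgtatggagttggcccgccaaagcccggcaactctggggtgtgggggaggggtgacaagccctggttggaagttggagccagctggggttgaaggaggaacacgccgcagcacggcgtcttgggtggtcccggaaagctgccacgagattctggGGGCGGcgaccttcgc

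In all, 8 short motifs were searched on both strands, and matches of the same or of different motifs were allowed to overlap. They were the GC box (GGGCGG), the CCAAT box (CCAAT), the E-box (CACGTG), an ETS site (CCGGAAG), the core of the NRF1 site, the cAMP response element (TGACGTCA), the core of the ATF4 element (TTGCATCA) and an E2F site (TTTCCCGC). The window of Slc25a10 held no match. That of Slc25a25 held 1 GC box and 3 CCAAT boxes, that of Slc25a15 2 GC boxes and that of Slc25a53 1 GC box. Of the 34 carriers, 25 had at least 1 window. A GC box was held by 21 of the 25, against 64.0% of 9438 tested genes with a window, and a CCAAT box by 13 against 40.6%. E-boxes were held by 5 carriers (9.96% of all), ETS sites by 5 (16.7%), the cAMP response element by 2, Slc25a25 in a start further downstream and Slc25a36 (3.12%), and the NRF1 core by Slc25a3 alone (9.89%). The ATF4 core and the E2F site were in none of the carrier windows and in 0.699% and 2.16% of all genes. The GC box was in the windows of 4 of 6 carriers that rose, 8 of 8 that fell and 9 of 11 that were not called. These are matches of letters and not sites of binding.

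Of 8 nucleotide carriers, 3 were called higher and 3 lower, beside 26.2% and 26.8% of all genes. Slc25a5 (chrX:36795651-36798807 in GRCm38, as are the gene positions that follow) encodes ANT2, the ADP/ATP exchanger of dividing cells that brings ATP out of the matrix. It had 452, 492 and 484 CPM with vehicle and 886, 745 and 682 CPM with AOA, with no overlap between the groups. The change was 0.69 ± 0.16 (log2, SE), 1.62-fold, at an adjusted p of 0.00501. Of the 75-base stretches of Slc25a5 transcripts, 19.8% also occur in 6 other annotated genes, Gm5560 and Gm5529 among them, so its level is uncertain where uniquely mapped reads were counted. Slc25a4 (chr8:46206797-46211284), which encodes ANT1, the form of muscle and heart, had 205, 198 and 217 CPM with vehicle and 276, 221 and 220 CPM with AOA. These values did not overlap, but AOA replicate 1 stood apart and the gene was not called (log2 fold change 0.21, 95% interval -0.11 to 0.53, adjusted p = 0.243). The share of Slc25a5 in the RPKM of the pair was 65.3%, 68% and 65.5% with vehicle and 73.3%, 74.2% and 72.6% with AOA.

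The ATP-Mg/phosphate carriers, which load or unload adenine nucleotides of the matrix under control of cytosolic calcium, moved in opposite directions. Slc25a25 (chr2:32414487-32451445) had 12.2, 7.86 and 10.9 CPM with vehicle and 23.5, 23.3 and 25.9 CPM with AOA, a rise of 1.23 ± 0.19 (adjusted p = 0.000731). The AOA libraries were close to each other and all above vehicle. Slc25a23 (chr17:57043711-57059863) fell from 48.1, 27.2 and 38.6 CPM to 17.7, 23.5 and 23.4 CPM (-0.82 ± 0.22, adjusted p = 0.0117). Slc25a24 (chr3:109123149-109168457) fell from 57.5, 90.6 and 68.3 CPM to 38.6, 51.5 and 54.3 CPM (-0.58 ± 0.20, adjusted p = 0.032). Both calls were lost when certain libraries were left out. That of Slc25a23 was lost without vehicle replicate 1 (-0.59, adjusted p = 0.0553) or AOA replicate 1 (-0.69, 0.0555). That of Slc25a24 was lost without vehicle replicate 2 (log2 fold change -0.35, adjusted p = 0.113) or AOA replicate 1 (-0.44, 0.107), and, with the change no smaller, without vehicle replicate 3 (-0.60, 0.0659) or AOA replicate 2 (-0.63, 0.0512). Within the trio, Slc25a25 made 8.44%, 5.05% and 7.48% of RPKM with vehicle and 25%, 19.8% and 21% with AOA, while Slc25a24 remained the most abundant in all 6 libraries.

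Of the pyrimidine nucleotide carriers, Slc25a36 (chr9:97074961-97111157) fell from 35.5, 37.3 and 34.1 CPM to 28.2, 26.8 and 21.2 CPM (-0.49 ± 0.15, adjusted p = 0.0228). This call was lost without vehicle replicate 1 (-0.47, adjusted p = 0.0686), vehicle replicate 3 (-0.49, 0.0593) or AOA replicate 3 (-0.37, 0.11), and 5.52% of its 75-base stretches are shared with Gm13217. Slc25a33 (chr4:149744036-149774277), which imports pyrimidine nucleotides for mitochondrial DNA and RNA synthesis, had 3.49, 6.97 and 3.2 CPM with vehicle and 8.32, 4.49 and 6.46 CPM with AOA. The groups overlapped because vehicle replicate 2 was high and AOA replicate 2 low, and the gene was not called (0.50, 95% interval -0.31 to 1.30, adjusted p = 0.268). Only the fit without vehicle replicate 2 called it, with a change of 0.98 at an adjusted p of 0.0193. An antisense gene, Gm13068, covers 14.9% of its exonic bases. Slc25a17, a carrier of coenzyme A, FAD and AMP in the membrane of peroxisomes and not of mitochondria, rose from 35.8 ± 6.27 to 54.8 ± 6.15 CPM (0.61 ± 0.17, adjusted p = 0.012).

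**Figure D2:**
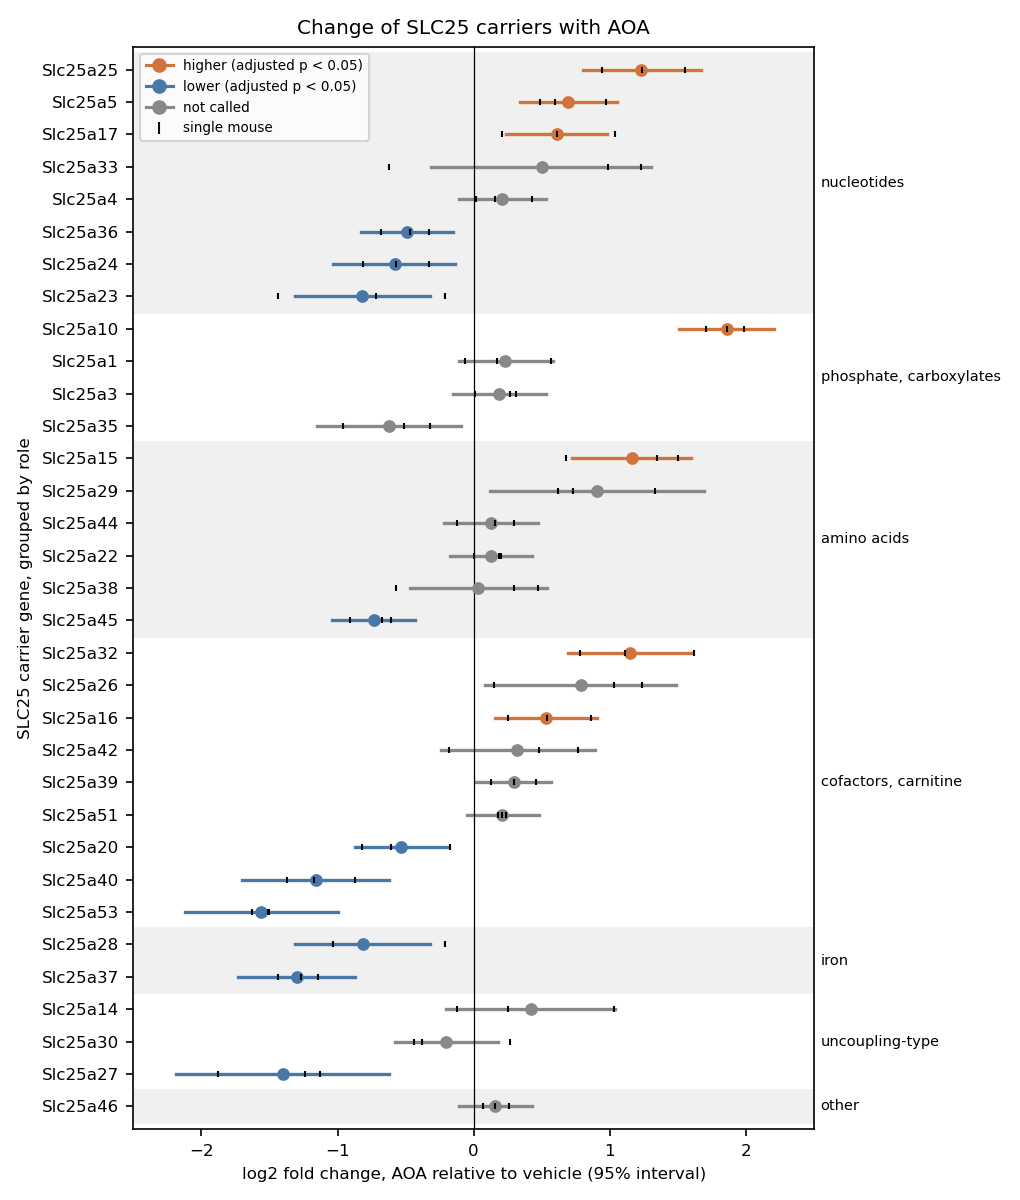
Log2 fold change of 33 SLC25 carriers, AOA relative to vehicle, with its 95% interval as a bar and the difference within each of the 3 mice as a tick. Genes are grouped by role on the vertical axis, with orange for the 7 called higher, blue for the 10 called lower and grey for 16 that were not called. Changes run from -1.56 for Slc25a53 to 1.86 for Slc25a10.

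Slc25a35 is placed here with the carriers of phosphate and carboxylates although its substrate is not settled. Among these 4 only Slc25a10 was called, beside 53.0% of all genes. It exchanges malate and succinate for phosphate, and it lies at chr11:120491840-120499187. Its levels were 7.54, 8.62 and 7.38 CPM with vehicle and 27.6, 28.4 and 29.7 CPM with AOA. The spread within each group was small beside the gap, and the change of 1.86 ± 0.15 (3.64-fold, adjusted p = 3.12e-05) lay at 1.71 to 1.99 within single mice. Slc25a10 moved from rank 31 to rank 23 of the carriers by RPKM. An antisense gene, Gm11788, covers 6.6% of its exonic bases, and the sources used here do not say whether the counting used strand.

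Slc25a3, which imports phosphate for ATP synthesis and also carries copper, had 396, 461 and 358 CPM with vehicle and 490, 464 and 431 CPM with AOA. The groups overlapped and it was not called (0.19, 95% interval -0.15 to 0.53, adjusted p = 0.317). Slc25a1, which exports citrate for fatty acid and sterol synthesis, was not called either (0.23, 95% interval -0.11 to 0.58). Slc25a35 had 6.6 ± 1.16 CPM with vehicle and 4.3 ± 0.468 CPM with AOA, and at an adjusted p of 0.0501 stood just outside the threshold. It passed in limma (0.0446) and after a trend with gene length was removed (0.0355). Rangrf on the opposite strand covers 31.3% of its exonic bases.

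Amino acid carriers gave 1 rise and 1 fall among 6, beside 26.2% and 26.8% of all genes called higher and lower. Slc25a15 (chr8:22375551-22398597), the ornithine/citrulline exchanger of the urea cycle, had 10.2, 14.6 and 9.5 CPM with vehicle and 26.2, 23.5 and 27 CPM with AOA. All AOA libraries lay above all vehicle libraries, with a change of 1.16 ± 0.20 (2.23-fold, adjusted p = 0.00115). Slc25a29 (chr12:108825873-108835883), which carries basic amino acids, had 1.59, 1.65 and 0.814 CPM with vehicle and 2.71, 2.59 and 2.22 CPM with AOA. At this level, where single libraries held 15 to 59 counts, its change of 0.91 (95% interval 0.12 to 1.69) missed the threshold at an adjusted p of 0.0522. A fit with the mouse as replicate block called it (0.93, adjusted p = 0.0391), as did one that left out vehicle replicate 2 (1.14, 0.0222). Slc25a45, related to the carriers of basic amino acids, fell from 55.7 ± 5.98 to 33.5 ± 1.59 CPM (-0.73 ± 0.13, adjusted p = 0.00172), from rank 5 to rank 10 by RPKM.

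The other 3 amino acid carriers were not called. Slc25a22 (chr7:141429744-141437892), a glutamate carrier, had 27.5, 24.8 and 25.9 CPM with vehicle and 27.5, 28.3 and 29.8 CPM with AOA, a change of 0.13 with a 95% interval of -0.17 to 0.43. Slc25a38, the glycine carrier that serves heme synthesis, had a change of 0.03 (95% interval -0.47 to 0.54). Slc25a44, a carrier of branched-chain amino acids, had one of 0.13 (-0.22 to 0.47). For each of the 3 the interval lay within 1 log2 unit of 0, as it did for 12 of the 17 carriers that were not called.

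Of 10 cofactor carriers, counted with carnitine and with Slc25a53, which is placed here by its relation to an NAD+ carrier, 2 rose, 3 fell and 5 were not called. The shares over all genes were 26.2% called higher and 26.8% lower. Slc25a32 (chr15:39091231-39112716), which brings folate or FAD into the matrix, had 11.7, 19.4 and 13.6 CPM with vehicle and 36, 33.4 and 29.6 CPM with AOA. The groups lay apart (1.15 ± 0.20, 2.21-fold, adjusted p = 0.00143), and vehicle replicate 2 was the highest of the vehicle libraries, as it was in 22 of the 34 carriers. Slc25a16 (chr10:62920633-62946498), linked to coenzyme A, rose from 17.5, 24.5 and 19.3 CPM to 31.7, 29.1 and 28 CPM (0.53 ± 0.16, adjusted p = 0.0219). The call was lost without vehicle replicate 1 (0.46, adjusted p = 0.0762), vehicle replicate 3 (0.52, 0.0709) or AOA replicate 1 (0.48, 0.057). Slc25a42 (chr8:70184340-70212305), the coenzyme A importer, had 5.71, 8.05 and 4.51 CPM with vehicle and 8, 7.08 and 7.77 CPM with AOA, which overlapped (0.32, adjusted p = 0.304). Only the fit without vehicle replicate 2 called it, with a change of 0.62 at an adjusted p of 0.0329. Slc25a26, the importer of S-adenosylmethionine, the methyl donor, had 3.03 ± 1.13 CPM with vehicle and 5.23 ± 0.973 CPM with AOA and was not called (0.79, adjusted p = 0.0599). It was called when mice entered as a replicate block (0.82, adjusted p = 0.0424) and when vehicle replicate 2 was left out (1.17, 0.00512).

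Of the glutathione carriers, 1 fell and 1 was not called, beside 26.8% of all genes called lower. Slc25a39 (chr11:102402985-102407946), which brings glutathione into mitochondria, had 63.6, 67.3 and 58.4 CPM with vehicle and 78.4, 73.8 and 80.1 CPM with AOA. The groups did not overlap, but the change of 0.30 (95% interval 0.02 to 0.57, adjusted p = 0.0662) missed the threshold, and it passed without vehicle replicate 2 (0.38, 0.0298). Its relative Slc25a40 (chr5:8422850-8454797) fell from 49.5, 27.2 and 40.6 CPM to 21.9, 14.8 and 15.6 CPM, by 1.16 ± 0.24 on the log2 scale (2.24-fold lower, adjusted p = 0.00337). It shares 2.6% of its 75-base stretches with Gm5066. Slc25a39 made 68.6%, 80.8% and 71% of the RPKM of the pair with vehicle and 85.9%, 89.5% and 89.7% with AOA.

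The largest fall was that of Slc25a53 (chrX:136981116-137038302), related to the NAD+ carrier Slc25a51 but with no settled substrate. It had 39.4, 46.2 and 27.2 CPM with vehicle and 12.6, 16.2 and 9.48 CPM with AOA. Every AOA library lay below every vehicle library, and the fall was of similar size in the 3 mice, at -1.63, -1.50 and -1.51. The fitted change was -1.56 ± 0.25 (2.94-fold lower, adjusted p = 0.000848). Slc25a51 (chr4:45395923-45408766) itself, which imports NAD+, had 91.5, 85.3 and 83.8 CPM with vehicle and 106, 96.7 and 99.1 CPM with AOA. These groups did not overlap, but the change of 0.21 (95% interval -0.05 to 0.48, adjusted p = 0.159) was not called. Slc25a20, which carries carnitine and acylcarnitines for fatty acid oxidation, fell from 49.3 ± 4.6 to 34.2 ± 4.66 CPM (-0.53 ± 0.15, adjusted p = 0.0147). That call was lost without vehicle replicate 3 (-0.45, adjusted p = 0.0762), AOA replicate 2 (-0.50, 0.0519) or AOA replicate 3 (-0.44, 0.0734), and 3.67% of its 75-base stretches occur in other genes.

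Beside 26.8% of all genes called lower, both iron carriers, the mitoferrins, fell. They bring iron into the matrix for heme and iron-sulfur clusters, Slc25a37 (mitoferrin 1) mainly in red cell precursors and Slc25a28 (mitoferrin 2) in other cells. Slc25a37 (chr14:69241848-69285112) had 139, 93.7 and 93.6 CPM with vehicle and 51.1, 42.3 and 38.7 CPM with AOA. All AOA libraries were far below vehicle (-1.30 ± 0.19, 2.47-fold lower, adjusted p = 0.00053), and 6.55% of its 75-base stretches are shared with Gm16867. Slc25a28 (chr19:43663801-43674881) had 39.9, 22.1 and 39.7 CPM with vehicle and 19.4, 19.1 and 19.3 CPM with AOA. Vehicle replicate 2 lay near the AOA libraries, which were nearly equal, and the fall of 0.81 on the log2 scale (SE 0.22, adjusted p = 0.0125) was lost without vehicle replicate 1 (-0.66, 0.0551) or vehicle replicate 3 (-0.65, 0.0526). In RPKM the pair had similar levels in these cells, Slc25a37 making 56.2%, 61% and 46.5% with vehicle and 49.2%, 45% and 42.5% with AOA. The marker sums of myeloid, natural killer and CD4 T cells were lower in the same AOA libraries, and their part in these falls was not tested.

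Of the carriers named for their likeness to uncoupling proteins, which let protons or small anions leak across the inner membrane, 1 of 3 was called. The share over all genes was 53.0%. Slc25a27 (chr17:43641891-43667214), known as UCP4 and best known from brain, fell from 8.97, 5.14 and 7.54 CPM to 4.05, 2.11 and 1.97 CPM. The groups did not overlap (-1.40 ± 0.35, 2.65-fold lower, adjusted p = 0.00799), and it had the widest interval of the called carriers, -2.19 to -0.62. Slc25a14 (chrX:48623413-48662294) had 4.68, 6.59 and 4.88 CPM with vehicle and 9.7, 6.08 and 5.85 CPM with AOA, where only AOA replicate 1 exceeded all vehicle libraries (0.42, 95% interval -0.20 to 1.04, adjusted p = 0.223). Slc25a30 (chr14:75760117-75787037) had 38.7, 26.8 and 37.5 CPM with vehicle and 28.4, 32.3 and 28.8 CPM with AOA, which overlapped (-0.20, 95% interval -0.58 to 0.18, adjusted p = 0.343). Slc25a46, an unusual member of the outer membrane that acts in mitochondrial shape, was not called (0.16, 95% interval -0.11 to 0.43).

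**Figure D3:**
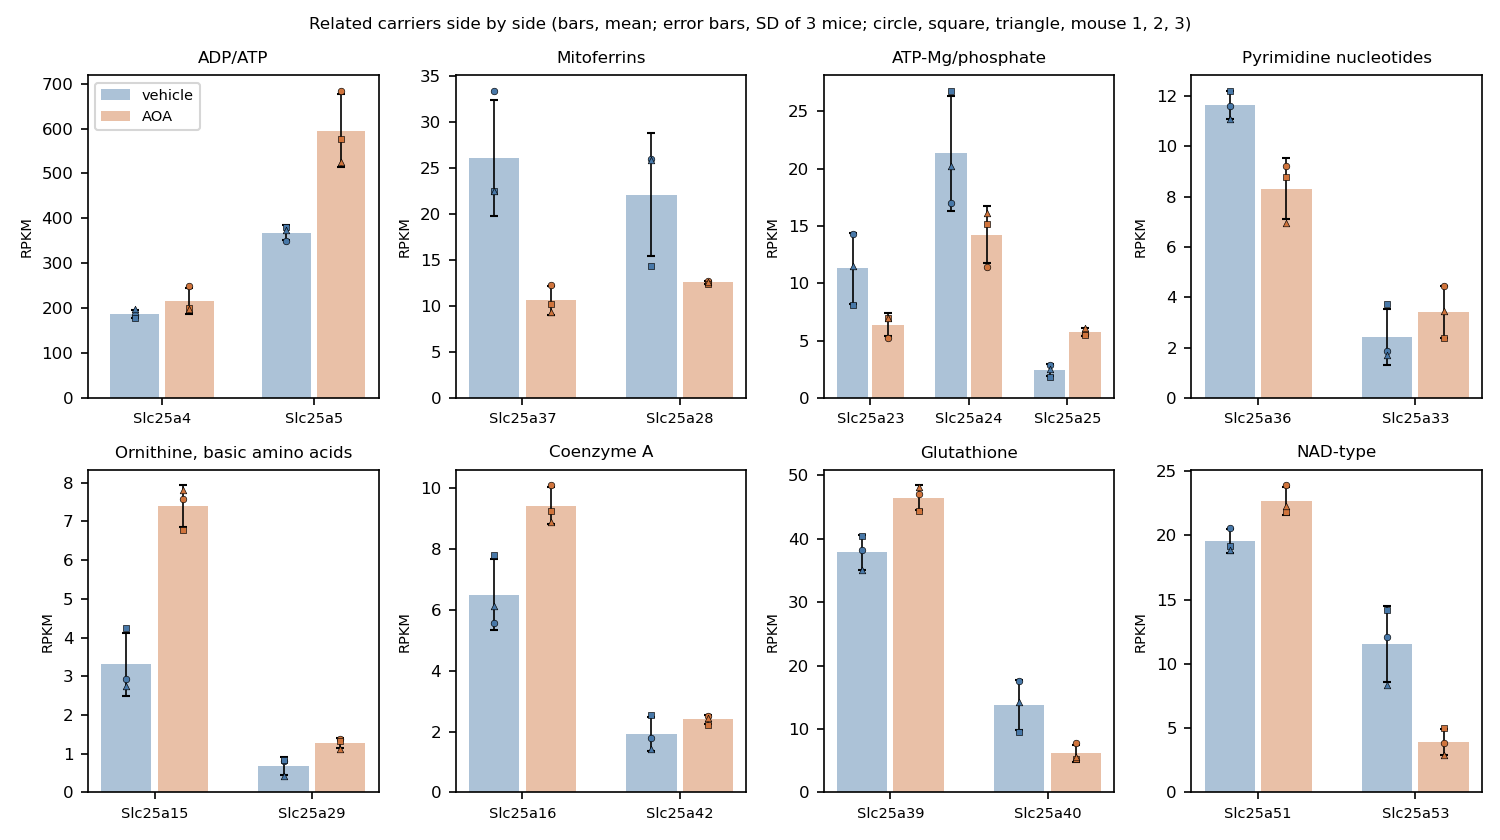
RPKM of related carriers in 8 panels, with bars for the group mean, error bars for the SD of 3 mice, and a circle, square and triangle for mice 1, 2 and 3. Each panel has its own vertical axis from 0. The AOA bar (orange) is above the vehicle bar (blue) for Slc25a25 and below it for Slc25a23 and Slc25a24, and it is below for Slc25a40 and Slc25a53 but not for Slc25a39 and Slc25a51.

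Balance between relatives was tested as the log2 ratio of their RPKM in each library, in 10 pairs, without regard to the mouse. With 3 libraries against 3 the exact two-sided permutation test cannot give a p below 0.1, or 0.2 after Benjamini-Hochberg adjustment here, so no pair could pass 0.05. In 5 pairs the ratios of the groups did not overlap. Over all genes the groups lay apart in 62.1% of single genes, and the share for gene pairs in general was not computed. The ratio of Slc25a25 to Slc25a23 was -2.20 ± 0.10 with vehicle and -0.15 ± 0.21 with AOA (log2, SD), a difference of 2.05 (exact p = 0.1, adjusted 0.2). That of Slc25a25 to Slc25a24 differed by 1.83, Slc25a51 to Slc25a53 by 1.77, Slc25a39 to Slc25a40 by 1.44 and Slc25a5 to Slc25a4 by 0.49, each with the same p. Within single mice these differences ran from 1.78 to 2.39, 1.52 to 2.39, 1.69 to 1.86, 1.01 to 1.83 and 0.44 to 0.54. Ratios overlapped for Slc25a37 to Slc25a28 (difference -0.52, exact p = 0.2), Slc25a33 to Slc25a36 (1.04, 0.2), Slc25a24 to Slc25a23 (0.22, 0.7), Slc25a15 to Slc25a29 (0.23, 0.4) and Slc25a16 to Slc25a42 (0.19, 0.4). Within single mice these ran from -0.93 to -0.24, -0.16 to 1.69, -0.61 to 0.87, 0.03 to 0.59 and -0.25 to 0.44, so the ratios of Slc25a37 to Slc25a28 and of Slc25a15 to Slc25a29 kept 1 sign in all 3 mice.

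Carriers varied more between vehicle than between AOA libraries. The median coefficient of variation of CPM was 18.6% with vehicle and 10.9% with AOA, against 14.2% and 14.2% over all genes, and it was higher with vehicle in 24 of 34 carriers. Vehicle replicate 2 was the highest vehicle library in 22 carriers and the lowest in 9. The share of all genes in which it was the highest was not computed. It also had the highest natural killer and myeloid marker sums of the vehicle libraries, and the lowest CD8 T cell sum. The part of such cells in the carrier levels was not tested. Without vehicle replicate 2, 12 carriers were called higher instead of 7, while the number of all genes called higher went from 3086 to 3499. Without vehicle replicate 3 there were 6 carriers called lower instead of 10, while the number of all genes called lower went from 3147 to 2517. In 26 of 34 carriers (76.5%) all 3 mice moved in the direction of the fitted change, as in 72.6% of all genes. The median within-mouse change of the carriers was 0.24, 0.07 and 0.22 in mice 1, 2 and 3, and that of all genes -0.02, 0 and -0.03.

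Family proteins with other names and the machinery that inserts carriers were read from the same fit. Ucp2, the uncoupling protein of lymphoid cells, had 397, 405 and 426 CPM with vehicle and 489, 565 and 617 CPM with AOA (0.44 ± 0.15, adjusted p = 0.0299). The call was lost with the gene length trend removed (0.37, 0.059) and without vehicle replicate 1 (0.0901), vehicle replicate 3 (0.0664), AOA replicate 2 (0.0813) or AOA replicate 3 (0.13). Without these libraries the change of Ucp2 was 0.45, 0.50, 0.44 and 0.37, in the same order. Mtch2, an outer membrane insertase derived from the family, rose by 0.94 ± 0.17 (adjusted p = 0.00169) and its relative Mtch1 by 0.72 ± 0.16 (0.00408). All 3 of this list that were tested, Ucp2 with a call lost in the settings above, were called higher, beside 26.2% of all genes.

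Of 10 tested genes of the carrier import route, 7 rose, none fell and 3 were not called, with a median log2 fold change of 0.71. The counts stand beside 26.2% of all genes called higher. Timm8a1, of the small Tim chaperones, rose from 1.11, 2.79 and 1.19 CPM to 8.18, 5.92 and 6.46 CPM (2.00 ± 0.37, adjusted p = 0.00189). Timm10, of the same class, rose by 1.71 ± 0.28 (0.000986) and its partner Timm9 by 1.10 ± 0.22 (0.00272). The rise of Timm22, the channel of the complex, was 0.89 ± 0.15 (0.00132), while its subunits Agk and Timm29 had changes of 0.35 and 0.12 and were not called. The call of Timm10b, at 0.77 (0.0374), was lost in limma (0.0565) and without vehicle replicate 2 (0.0563), vehicle replicate 3 (0.0845) or AOA replicate 1 (0.37, 0.102). Its change was 0.72 in limma, and 0.76 and 0.73 without vehicle replicates 2 and 3. Timm8b, not called at 0.52, passed without vehicle replicate 2 (0.0473) or AOA replicate 2 (0.0403). AOA replicate 1 was the highest library for Timm10b, at 38.2 CPM beside 19 and 20.1 CPM in the other AOA libraries. It was also the highest for Timm22, Timm9, Timm10, Timm8a1, Timm8b, Timm13 and Tomm70a, but not for Agk or Timm29. Among the 34 carriers it was the highest AOA library in 19.

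Mitochondrial transporters of other families and their regulators went both ways, with 8 of 21 higher, 5 lower and a median of 0.22, beside 26.2% and 26.8% of all genes called higher and lower. Mpc1 and Mpc2, the subunits of the pyruvate carrier, rose by 1.16 ± 0.20 (adjusted p = 0.00117) and 1.10 ± 0.23 (0.00337). Both were highest in AOA replicate 1, at 33.4 and 48.8 CPM. The other AOA libraries had 23.4 and 21.3 CPM of Mpc1 and 25.8 and 31.5 CPM of Mpc2. Abcb6, a porphyrin transporter of the outer mitochondrial and other membranes, had the largest rise of this list at 1.73 ± 0.24 (0.000418). The largest falls were those of Sfxn4, a sideroflexin needed for iron-sulfur cluster and respiratory complex assembly, at -1.94 ± 0.33 (0.00115), of Slc8b1, the sodium/calcium exchanger, at -1.11 ± 0.16 (0.000551), and of Micu3, a regulator of the calcium uniporter, at -1.04 ± 0.29 (0.0133). The call of Micu3 was lost without AOA replicate 3 (-0.83, adjusted p = 0.0571) and that of Sfxn3 without vehicle replicate 3 (-0.43, 0.1). Letm1, counted as higher at 0.47, was lost without vehicle replicate 1 (0.11), vehicle replicate 3 (0.0908), AOA replicate 2 (0.108) or AOA replicate 3 (0.0972). Its change in these fits ran from 0.39 to 0.47. Abcb10, counted as lower at -0.45 (0.042), was lost in the fit blocked by mouse (0.0562), with no low-count filter (0.053), with the gene length trend removed (0.0509) and without vehicle replicate 1 (0.144), vehicle replicate 3 (0.163), AOA replicate 1 (0.0949) or AOA replicate 3 (0.159). Its change in these fits ran from -0.45 to -0.36.

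**Figure D4:**
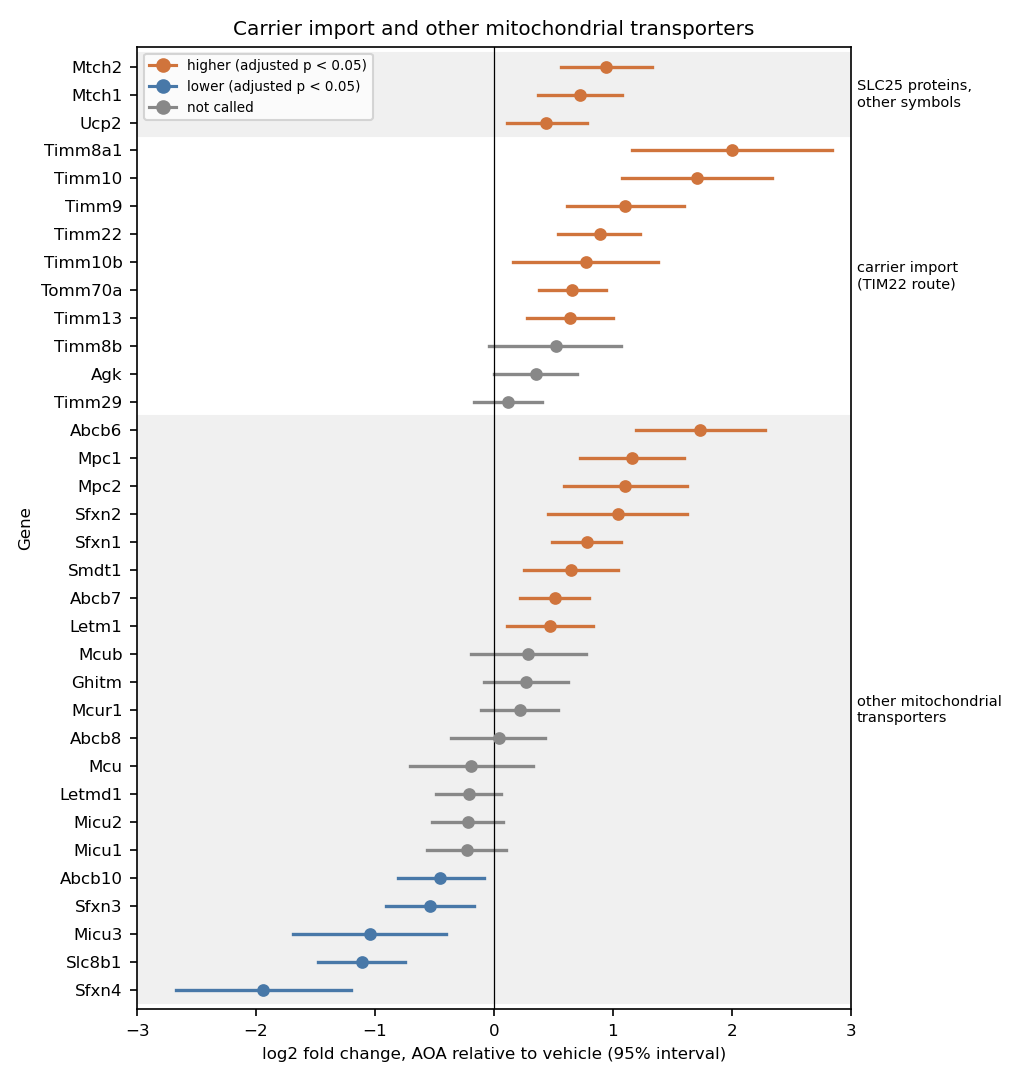
Log2 fold change, AOA relative to vehicle, with its 95% interval for SLC25 proteins under other symbols, genes of the carrier import route and mitochondrial transporters of other families, on the vertical axis. Orange marks genes called higher, blue lower and grey not called. All 7 calls of the import route lie to the right of 0, while the other transporters spread from -1.94 for Sfxn4 to 1.73 for Abcb6.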

How the data were processed

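Stranded mRNA libraries of 6 CD8+ T cell cultures were sequenced. The authors aligned reads with STAR and counted those that mapped uniquely, and the deposited table holds these raw counts per gene beside its Entrez number, symbol and length. The submitters' processing notes also name bcl2fastq, featureCounts, DESeq2 and the mm10 build. The sources used here do not give the annotation, the strand setting or any gene filter.

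Counts were fitted in R 4.3.3 with edgeR 4.0.16 (filterByExpr with a minimum count of 10, TMM, robust quasi-likelihood test, group only), with Benjamini-Hochberg adjustment over 11759 genes and a threshold of 0.05. CPM use TMM library sizes, log2 CPM have a prior count of 2, and intervals are at 95%. Fold values are the fitted log2 fold changes turned back to a linear scale. Alternatives were limma 3.58.1 (voom), DESeq2 1.42.0, scaling by total counts or by median-of-ratios size factors, testing all genes or only those with at least 10 CPM in 3 libraries, a log2 fold change of at least 1, the mouse as a replicate block, a gene length trend removed with a loess span of 0.5, with and without the block, and each library left out. Data simulated for this comparison held 11759 genes, of which only 200 were changed, while 53.0% were called in the real data. There edgeR recovered 63.4% of 2-fold and 94% of 4-fold changes, and 7.38% of its calls were false. False calls were 10.1% with the mouse as a replicate block, 15.1% in DESeq2 and 6.68% in limma. With so few changed genes, these rates may not hold for the real data. The labels give the same mice to both groups. Deviations from group means correlated across genes, which are not independent replicates, with r of 0.0868, 0.189 and 0.194 within mice. Between unlike mice r ran from -0.177 to 0.035.

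Members and lists were chosen with earlier results of these data known. Values in every library were given for members called with a log2 fold change of at least 1, those with a mean of at least 100 CPM and those with a close relative. In the other lists, up to 3 called genes a direction were named by rule. Timm22, Agk and Timm29, as parts of the TIM22 complex, and genes whose call changed with a setting were named after their values were seen. Gene positions, overlaps and shared 75-base stretches came from GENCODE vM21 (GRCm38), and promoter windows and family symbols from RefSeq (GRCm38.p6). Motifs were searched in the windows after the carriers' changes were known. The values of 1 member are not reported here, and it is counted in the totals but not plotted.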

Additional observations from a re-analysis of the deposited data

How the results depend on the processing

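With each library left out in turn, the number of carriers called higher ranged from 6 to 12 and the number called lower from 6 to 9, against 7 and 10. Both numbers were 4 with a log2 fold change of at least 1. The filter of at least 10 CPM left Slc25a27 untested and gave 9 lower. The mouse as a replicate block gave 9 higher and 10 lower, adding Slc25a29 and Slc25a26, and changed no other carrier's call. In all settings that kept every library and tested the carrier, the block and the 10 CPM filter included and the fold threshold left out, 288 comparisons of a carrier's call were the same, 11 became calls and none was lost. Leaving out a library lost 17 and gained 5. The cause of these changes was not tested. No direction was reversed among the carriers called. The median carrier change stayed between 0.10 and 0.22. Slc25a29 had the fewest counts, 15 to 59 a library, so counting error is widest there. With 3 cultures per group, intervals of uncalled carriers still allow changes of the size given beside them.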
